A study of Mus musculus with 4 samples.

Results

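The cells described here were chosen by their own UMI counts, as those that met an expression rule for macrophages with little C1q, the first component of the classical complement cascade. They came from the aorta-gonad-mesonephros region (AGM) of the mouse embryo at E11.5 (days of embryonic development). A cell was retained when it held at least 2000 unique molecular identifiers (UMIs, each standing for 1 captured mRNA molecule), at least 1000 genes and under 25% UMIs of mitochondrial genes. It counted as a macrophage when at least 3 of 10 rule genes (Csf1r, Mrc1, F13a1, Adgre1, Fcgr1, Cx3cr1, Aif1, C1qa, C1qb and C1qc) were detected and their UMIs summed to 8 or more per 10000 UMIs of the cell. It counted as C1q-low when C1qa, C1qb and C1qc together stayed under 20 per 10000. Of 44168 retained cells, 7142 met the macrophage rule, of which 4850 were C1q-low and 2292 were C1q-high.

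All 4 libraries came from C57BL/6J embryos, and all cells had been sorted as CD31+ (CD31, encoded by Pecam1, marks endothelium and many blood cells). A second sort used TMRM, a dye that enters mitochondria according to their membrane potential, and gave a low fraction (MMPlow, 2 libraries) and a high fraction (MMPhigh, 2 libraries). The series was measured as droplet-based single-cell 3′ RNA counts. The labels do not say whether the libraries came from separate litters or sorts, so p-values measure the spread between these libraries, which may be technical.

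Macrophages of the mid-gestation embryo derive largely from yolk sac progenitors that colonise each tissue through the blood. They depend on Csf1r, the receptor for colony-stimulating factor 1, clear dying cells and take part in vessel remodelling. Mature resident macrophages make the 3 C1q chains and are rich in lysosomal proteases, whereas monocytes and myeloid precursors make little C1q and carry other genes, such as Ccr2 or the granule enzyme genes Mpo and Prtn3.

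The 4 libraries held 3486 to 19579 retained cells and 51800709 to 120168395 UMIs over all barcodes. Depth was uneven: C1q-low cells had a median of 2966.5, 3419 and 3155 UMIs in MMPlow 1, MMPlow 2 and MMPhigh 1, and of 25916 in MMPhigh 2. Between 7 and 89 barcodes of retained cells were shared by each pair of libraries, and 1 C1q-low barcode was shared, between MMPlow 1 and MMPhigh 1. No doublets were removed for the main values, since the doublet caller marked 2 of 16700 cells in MMPlow 1 and 0 of 4403 in MMPhigh 1 and had therefore not worked there. It marked 996 cells in MMPlow 2 and 68 in MMPhigh 2, among them 232 and 20 C1q-low cells.

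The median C1q level of C1q-low cells was 4.24, 4.18, 9.64 and 10.3 per 10000 in MMPlow 1, MMPlow 2, MMPhigh 1 and MMPhigh 2, and that of C1q-high cells was 32.5, 35, 36.8 and 50.2. No C1q UMI was found in 20.1% and 19.5% of C1q-low cells of MMPlow and in 3.21% and 1.58% of those of MMPhigh. With every cell thinned to 2000 UMIs these shares were 36.0%, 37.3%, 12.4% and 20.6%, so that most C1q-low cells of each library held C1q. The limit of 20 did not fall in a gap between groups of cells. Just inside it, from 15 to 20 per 10000, lay 115, 115, 170 and 80 cells, and just outside, from 20 to 25, lay 69, 87, 131 and 59. In the same library order, 125, 185, 50 and 11 C1q-low cells had a rule-gene sum between 8 and 10 per 10000.

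**Figure D1:**
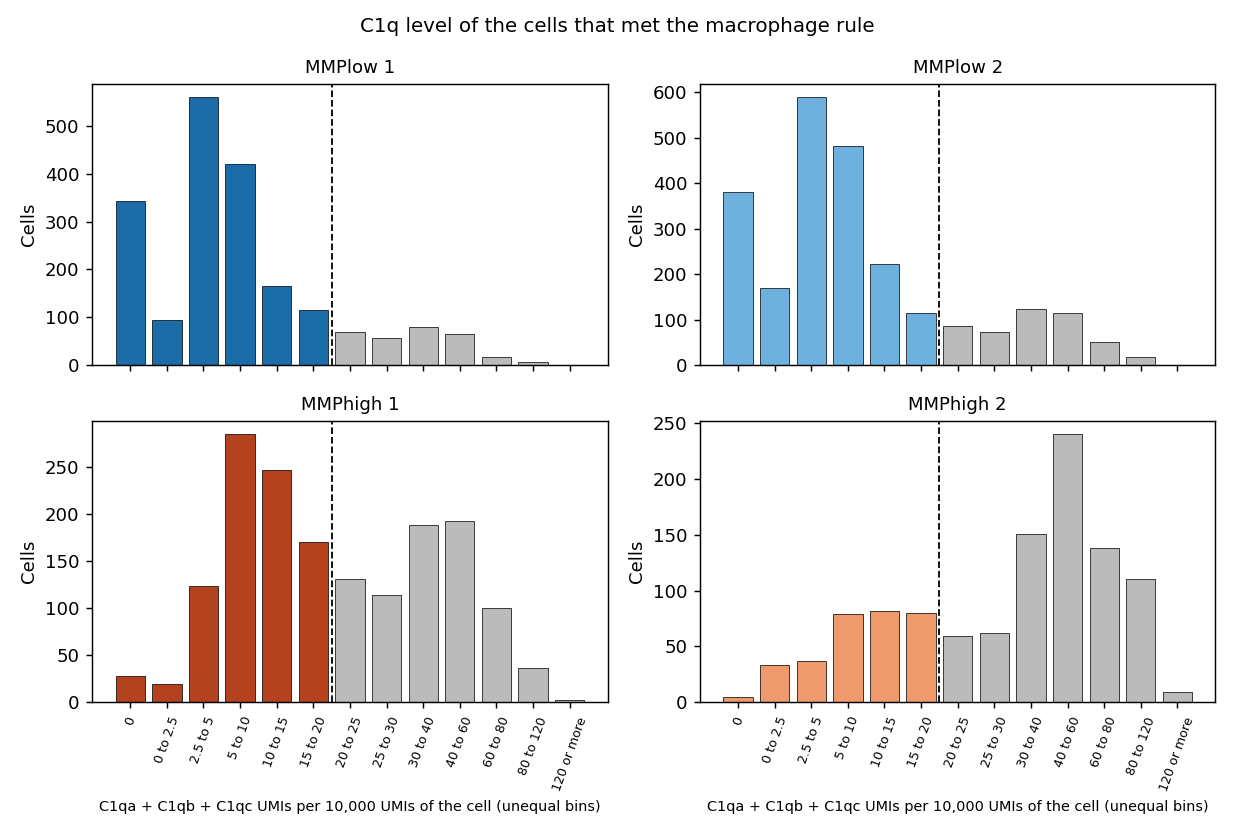
Number of cells that met the macrophage rule (vertical axis) by their summed C1qa, C1qb and C1qc UMIs per 10000 (horizontal axis, bins of unequal width), in 1 panel per library. Coloured bars left of the dashed limit at 20 are the C1q-low cells, grey bars are C1q-high; the counts run through the limit in all 4 libraries, with 115 cells just inside and 69 just outside it in MMPlow 1.

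The label was borne out only in part by genes outside the rule. Thinned to 2000 UMIs, cells were scored on 18 myeloid identity genes outside the rule. At least 3 were detected in 70.1%, 73.3%, 76.4% and 88.3% of C1q-low cells of MMPlow 1, MMPlow 2, MMPhigh 1 and MMPhigh 2. The shares were 99.0%, 99.4%, 98.0% and 99.9% for C1q-high cells and 15.4%, 16.3%, 12.8% and 3.25% for cells outside the macrophage rule. A single gene of that list gave another order of the libraries. Ptprc, which encodes the pan-leukocyte protein CD45, was detected in 61.9% and 68.8% of C1q-low cells of MMPlow, in 33.7% of those of MMPhigh 1 and in 84.2% of those of the deeper MMPhigh 2. With every cell thinned to 2000 UMIs the Ptprc shares were 47.9%, 52.6%, 23.0% and 41.8%. C1q-high cells, thinned likewise, had Ptprc in 62.7%, 62.2%, 44.3% and 61.0%. Neural cells outside the macrophage rule, which should lack Ptprc, had medians of 4192, 4698, 4108 and 20305 UMIs. They held a thinned Ptprc share of 2.48%, 3.05%, 3.74% and 0.517%, and the shares in C1q-low cells were above this background in every library. Neural cells that met the macrophage rule were left out of this background, which can lower it.

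For some cells the rule rested on C1q itself. Without counting C1q, 71.1% and 72.8% of the C1q-low cells of MMPlow, 48.1% of those of MMPhigh 1 and 88.3% of those of MMPhigh 2 still met the macrophage rule on the other 7 genes. C1qb was found in 11.1%, 7.24%, 9.35% and 0.948% of the thinned neural cells outside the rule, which cannot be compared with the C1q-low cells because the rule counts C1qb. Of the neural cells themselves, 18 of 424, 23 of 549, 291 of 1575 and 90 of 1275 met the C1q-low rule. These made up 1.06%, 1.17%, 33.3% and 28.5% of the C1q-low cells of the 4 libraries. Because many of the selected cells carried the markers of other cell types, they are called C1q-low cells below, after the rule that chose them.

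The 10 rule genes are given as a description, since they chose the cells. Mrc1, a mannose receptor of resident macrophages, stood at 835 and 798 CPM (counts per 1000000, from UMIs summed over the C1q-low cells of a library) in MMPlow and at 294 and 385 CPM in MMPhigh. F13a1, the coagulation factor XIII subunit made by embryonic macrophages, stood at 809 and 861 CPM in MMPlow and at 263 and 361 CPM in MMPhigh. Both genes were thus higher in each MMPlow library than in either MMPhigh library. Csf1r varied less, at 350.5 and 338 CPM in MMPlow and 258 and 301 CPM in MMPhigh. Adgre1, which encodes the surface protein F4/80, followed the same order, at 199 and 216 CPM against 127 and 164 CPM. Cx3cr1, a chemokine receptor of macrophages and microglia, overlapped between the gates, at 396 and 347 CPM against 373 and 555 CPM. Over all 10 rule genes, 5 were higher in MMPhigh without overlap of the libraries and 4 were lower. Over all 14593 genes tested these counts were 3878 and 6917. The 4 lower rule genes are those named above, and the median log2 difference of the 10 was 0.50.

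**Figure D2:**
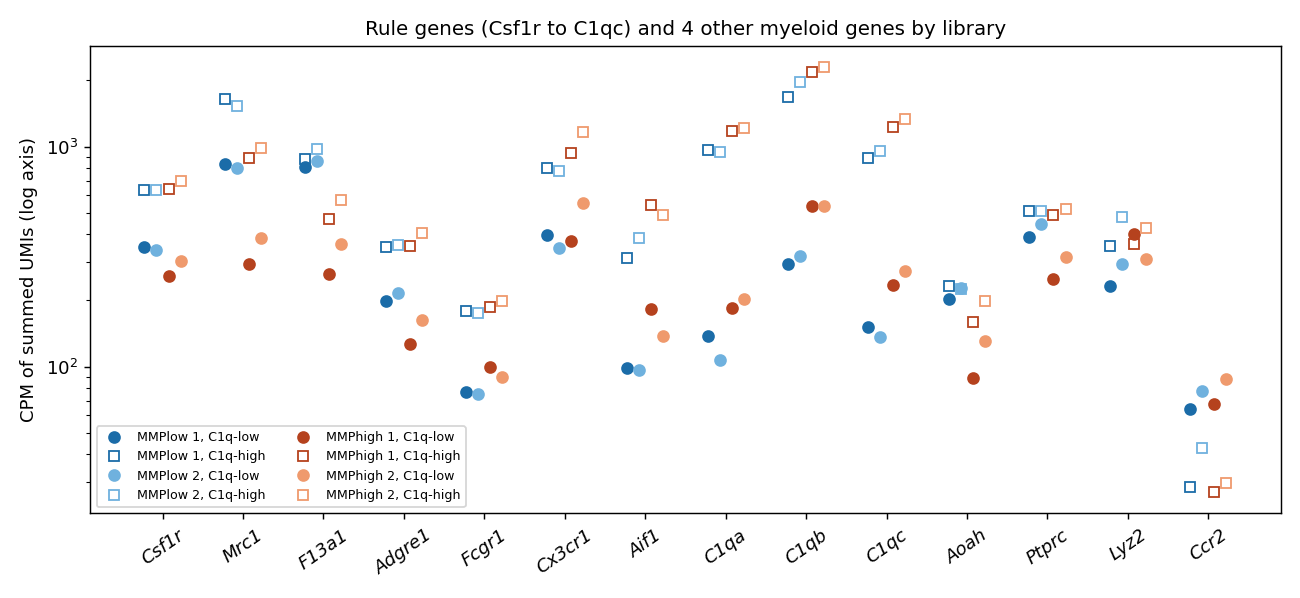
CPM of summed UMIs (vertical log axis) of the 10 rule genes and of Aoah, Ptprc, Lyz2 and Ccr2 in C1q-low cells (filled circles) and C1q-high cells (open squares), coloured by library. Csf1r lay between 258 and 350.5 CPM in C1q-low cells and between 634 and 694 CPM in C1q-high cells, whereas Ccr2 lay higher in C1q-low cells.

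Clustering the 4850 cells on genes other than the rule genes gave 11 clusters, numbered by size, whose leading genes are given as a description. Clusters 1, 3 and 4 were led by myeloid genes. The other 8 were led by genes of other cell types or by genes that mark no blood cell. Each marker list named below is given as its summed UMIs per 10000 over the cells of the cluster, so deep cells weigh more. Leading genes are ranked against the other C1q-low cells, so they need not hold most marker UMIs. The myeloid identity list summed to 26.8 in cluster 2 (neural 19.3), 29.8 in 5 (endothelial 29.1), 26.2 in 7 (megakaryocyte 21.8) and 24.6 in 8 (mesenchymal 11.1). It lay below the endothelial list in clusters 6 (7.59 against 43.8), 9 (14.9 against 24.0) and 10, and below the megakaryocyte list in cluster 11. The myeloid list is longer than these other lists.

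Cluster 4, with 485 cells, drew 107 and 151 cells from MMPlow and 76 and 151 from MMPhigh, whereas clusters 1 and 3 had at most 9 from either MMPhigh library. Its leading genes were Cd52, Lsp1, Plac8 and Coro1a, all genes of leukocytes, with Lyz2, the lysozyme gene of myeloid cells, and Ccr2, the chemokine receptor of monocytes, among the first 10. The myeloid identity list summed to 69.1 per 10000, above the 7.59 to 44.8 of the other clusters, and the endothelial list to 1.69. Spi1, which encodes the myeloid transcription factor PU.1, stood at 348 CPM here and at no more than 237 CPM in the other clusters. The median depth of its cells was 6929 and 8863 UMIs in MMPlow, above every other cluster of those libraries, and 17641 and 31085 UMIs in MMPhigh, below a few small groups of cells there. They made up 6.30%, 7.69%, 8.71% and 47.8% of the C1q-low cells of MMPlow 1, MMPlow 2, MMPhigh 1 and MMPhigh 2.

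Cluster 1, with 955 cells, was led by Mrc1 and Stab1. Its resident perivascular macrophage list summed to 23.3 per 10000, below the 33.2 of cluster 11, and its lysosome list to 42.8, below the 47.6 of cluster 4. Mrc1 stood at 2523 CPM, Stab1, a scavenger receptor, at 1125 CPM, F13a1 at 2036 CPM and Dab2, an endocytic adaptor, at 1574 CPM. Apoe, the apolipoprotein of macrophages and other cells, reached 3470 CPM, and Aoah, a lipopolysaccharide-degrading lipase named among the markers of these cells, 473 CPM. Lyve1 and Timd4, markers of some fetal resident macrophages, were low at 39.2 and 9.53 CPM. Of its cells 422 and 527 came from MMPlow and 5 and 1 from MMPhigh. Their median depth in MMPlow was 2543.5 and 2760 UMIs, their median mitochondrial share 6.72%, and the nuclear transcript Malat1 took 0.978% of their UMIs, the highest of the 11 clusters.

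Cluster 3, with 818 cells, was led by granulocyte genes. S100a8 and S100a9, which encode the calprotectin subunits of neutrophils and monocytes, stood at 646 and 585 CPM, Mpo, myeloperoxidase, at 399 CPM and Prtn3, proteinase 3, at 391 CPM. Elane, the neutrophil elastase gene, was far lower, at 20.6 CPM. The cells also held Csf1r at 487 CPM, F13a1 at 898 CPM, Ccr2 at 142 CPM and Ptprc at 704 CPM, the highest Ptprc level of any cluster. C1q was the lowest of the 11 clusters, with a median of 3.34 per 10000. As in cluster 1, MMPlow gave most cells, 385 and 420, against 9 and 4 from MMPhigh.

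Among the remaining clusters, 2 carried neural genes and 11 neural and platelet genes. Cluster 2, with 849 cells, was led by Dcc, a netrin receptor of growing axons, and Nrxn3, a synaptic adhesion gene. It drew 773 cells from MMPhigh 1, 88.5% of the C1q-low cells of that library, and may be that library rather than a cell type. Its 42 cells from MMPhigh 2 had a median of 52457 UMIs, against 2996 in MMPhigh 1, so they weigh more in its summed values, and the doublet caller marked 23.8% of them. Cluster 11, with 93 cells, was led by Thsd7b and also held Ppbp, a platelet chemokine gene, and Neurod1, a neuronal transcription factor gene. It drew 90 cells from MMPhigh 2. Its megakaryocyte list summed to 34.1 per 10000, the highest of the 11 clusters and above its neural sum. The neural list summed to 19.3 and 18.0 per 10000 in these clusters and to 0.535 to 3.24 in the others.

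Endothelial genes led clusters 5, 6 and 9, with 446, 365 and 181 cells. Ptprm and Emcn, the sialomucin of venous and capillary endothelium, led cluster 5, and Stab2, a scavenger receptor of sinusoidal endothelium, led cluster 6. Neither of these had a cell from MMPhigh. Cluster 9 drew 163 cells from MMPlow 2 and, like cluster 11, may be its library rather than a type. In MMPlow 2, where the doublet caller worked, it marked 73.5% of the 215 cells of cluster 5 and 0 of the 168 cells of cluster 6. In MMPlow 1 and MMPlow 2, 470 and 548 C1q-low cells held at least as many endothelial-list UMIs as rule-gene UMIs, compared with 6 and 0 in MMPhigh 1 and MMPhigh 2.

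Cluster 7, with 310 cells, held globin and platelet integrin genes such as Hba-a1 and Itga2b. Its 21 cells from MMPhigh 2 and 4 from MMPhigh 1 had medians of 72115 and 54218.5 UMIs. Its 155 and 130 cells from MMPlow had 3346 and 4396, so the few MMPhigh cells weigh more in its summed values. The doublet caller marked 14.3% of the 21. Cluster 8, with 218 cells, held the mesenchymal genes Gpc3 and Col3a1, and the caller marked 37.3% of its 102 cells from MMPlow 2. Cluster 10, with 130 cells from MMPlow alone, was led by the imprinted genes Igf2 and H19 with the G protein gene Gng11. In both MMPlow libraries its cells had the lowest median depth, 2320 and 2395 UMIs, and the lowest median mitochondrial share, 0.647% and 1.11%. Whether cells of 2 types in 1 droplet, free RNA or cells of the other types gave these profiles was not tested.

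**Figure D3:**
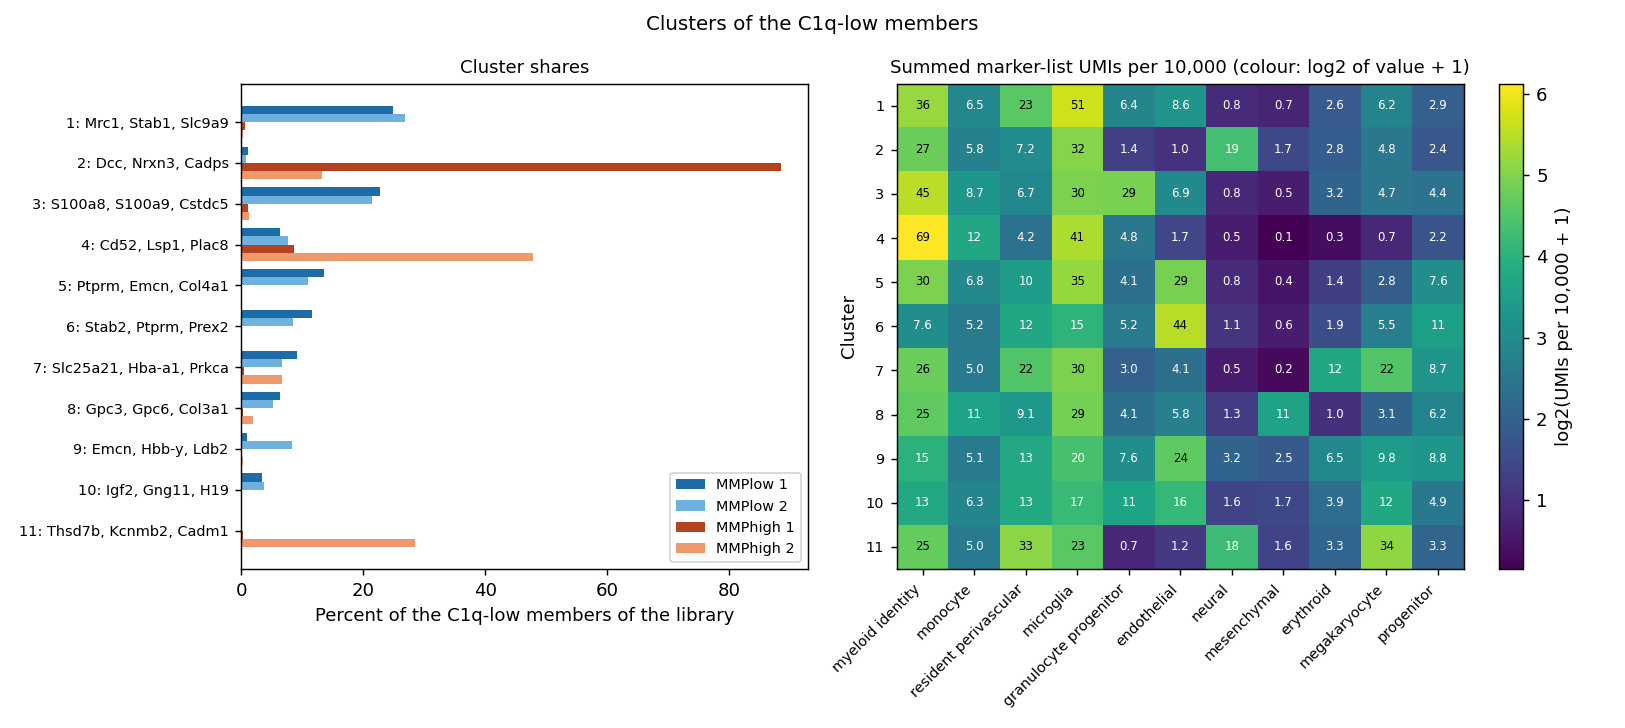
Left, percent of the C1q-low cells of each library (horizontal axis) in each of the 11 clusters (vertical axis, with 3 leading genes), bars coloured by library. Right, summed UMIs per 10000 of 11 marker lists in each cluster, written in the cells, with colour showing log2 of the value plus 1; cluster 4 has the highest myeloid identity sum, 69.1, and clusters 5 and 6 the highest endothelial sums, 29.1 and 43.8.

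C1q-low cells made up 10.2% (95% exact interval 9.71 to 10.6) and 10.0% (9.61 to 10.5) of the retained cells of MMPlow and 19.8% (18.7 to 21.0) and 9.06% (8.13 to 10.1) of those of MMPhigh. The intervals cover counting error only. MMPhigh 1 was high and MMPhigh 2 lay slightly under both MMPlow libraries, so the gates overlapped. The difference of means, 4.35 points (MMPlow 10.1% ± 0.100, MMPhigh 14.4% ± 7.61, SD, n = 2 each), had an exact two-sided permutation p of 1, in a design whose smallest p is 0.33. Without MMPhigh 1 the difference turned to -1.03 points, and with the C1q limit at 10 per 10000 to -1.01. It was 11.8 points with a C1q limit of 40 and 7.09 with endothelial-led cells removed. In these last 2 settings both MMPhigh libraries lay above both MMPlow libraries, as they did with the stricter cell filter, a rule level of 16 per 10000 (3.78) and myeloid-led cells alone (3.52), each with the smallest p of the design.

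As a share of all cells that met the macrophage rule, C1q-low cells were the majority in MMPlow and a smaller part in MMPhigh. They were 85.3% (83.7 to 86.9) and 80.8% (79.2 to 82.4) of these cells in MMPlow and 53.3% (50.8 to 55.7) and 29.1% (26.4 to 31.9) in MMPhigh. Both MMPhigh libraries lay below both MMPlow libraries. The difference was -41.9 points (MMPlow 83.1% ± 3.17, MMPhigh 41.2% ± 17.1, SD, n = 2 each) with an exact permutation p of 0.33, the smallest the design allows. The direction held under every alternative tried, from -27.1 points with a C1q limit of 40 to -54.0 without MMPhigh 1. It was -36.9 points with endothelial-led C1q-low cells removed and -42.2 with myeloid-led cells alone. Clusters 1 and 3 also move with this share, as given above, and their part in it was not tested.

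Within each library, C1q-low cells differed from C1q-high cells in many genes beyond C1q. Since the rule split the cells by C1q, these differences are described without a test. Apoe stood at 1962, 1638, 2006 and 1548 CPM in the C1q-low cells of MMPlow 1, MMPlow 2, MMPhigh 1 and MMPhigh 2 and at 7479, 6297, 7639 and 7134 CPM in the C1q-high cells. Its mean log2 ratio of C1q-low over C1q-high, with 10 CPM added to each value, was -2.00 ± 0.13 (SD, n = 4 libraries). Fcrls, an Fc receptor-like gene of microglia and related macrophages, had a mean log2 ratio of -1.96 ± 0.07, Ctsb, cathepsin B, of -1.91 ± 0.12 and Trem2, a lipid-sensing receptor, of -1.80 ± 0.14. These 4 genes were lower in the C1q-low cells of every library by a similar amount.

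Of 6655 genes at 20 CPM or more in every library in at least 1 of the classes, 2066 were above in C1q-low cells of all 4 libraries and 1249 were below in all 4. All 20 lysosome genes that reached this level were below in all 4, with a median log2 ratio of -1.06, against 0.09 over the 6655 genes. Ctss, cathepsin S, stood at 201, 205, 246 and 259 CPM against 762, 758, 782 and 859 CPM. Likewise 12 of 13 microglia genes, 9 of 10 resident perivascular genes and 15 of 17 myeloid identity genes were below in all 4. The C3a receptor gene C3ar1 was at 61.0, 54.9, 86.1 and 87.8 CPM against 220, 223, 279 and 285 CPM. Lyz2 and Aoah were above in 1 library. Aoah was at 202, 228, 88.9 and 130 CPM in C1q-low cells and at 233, 224, 160 and 199 CPM in C1q-high cells.

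Several precursor genes stood higher in C1q-low than in C1q-high cells of the same library, while monocyte genes were split. Of the 7 monocyte genes that reached 20 CPM, 4 were above and 2 below in all 4 libraries (median 0.46). The monocyte list summed to 7.25, 8.26, 8.79 and 8.26 per 10000 in C1q-low cells and to more in the C1q-high cells of every library, 9.44, 11.1, 9.38 and 9.24. Ccr2, 1 of the genes above, stood at 64.2, 77.3, 67.3 and 87.8 CPM against 28.4, 42.8, 26.9 and 29.6 CPM. Mpo stood at 104, 114, 49.6 and 52.7 CPM against 33.8, 34.2, 7.42 and 3.17 CPM, and Prtn3 at 118, 147, 119 and 159 CPM against 56.8, 51.0, 31.3 and 29.9 CPM. Both granule genes were above in every library. Mpo reached 20 CPM in every library only in C1q-low cells, so the filter admitted it through the class where it was higher. Prtn3 reached that level in both classes. Kit and Myb, a receptor and a transcription factor of blood progenitors, were also above in all 4, with mean log2 ratios of 1.22 ± 0.48 and 0.87 ± 0.39. Of the cell cycle lists, 29 of 39 S phase genes and 39 of 51 G2 and M phase genes were above in all 4, with median log2 ratios of 0.28 and 0.28. Top2a, the topoisomerase of dividing cells, stood at 482, 445, 334 and 366 CPM against 389, 310, 253 and 274 CPM.

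Neural, endothelial and progenitor genes move with the same split. Dcc stood at 90.3, 97.4, 799 and 1123 CPM in C1q-low cells and at 31.5, 37.5, 148 and 219 CPM in C1q-high cells. The neural list summed to 1.07, 1.12, 9.59 and 8.02 per 10000 in C1q-low cells and to 0.722, 0.484, 2.30 and 1.66 in C1q-high cells, with 10 of 10 of its genes detected in the C1q-low cells of every library. These sums weigh deep cells more. The median C1q-low cell held 1.17 per 10000 in MMPhigh 2, against 6.78 in MMPhigh 1 and 0 in both MMPlow libraries. The endothelial list summed to 15.4, 14.8, 1.11 and 1.20 per 10000 in C1q-low cells and to 8.65, 7.18, 0.865 and 0.856 in C1q-high cells. The part of these markers in the differences above was not tested.

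**Figure D4:**
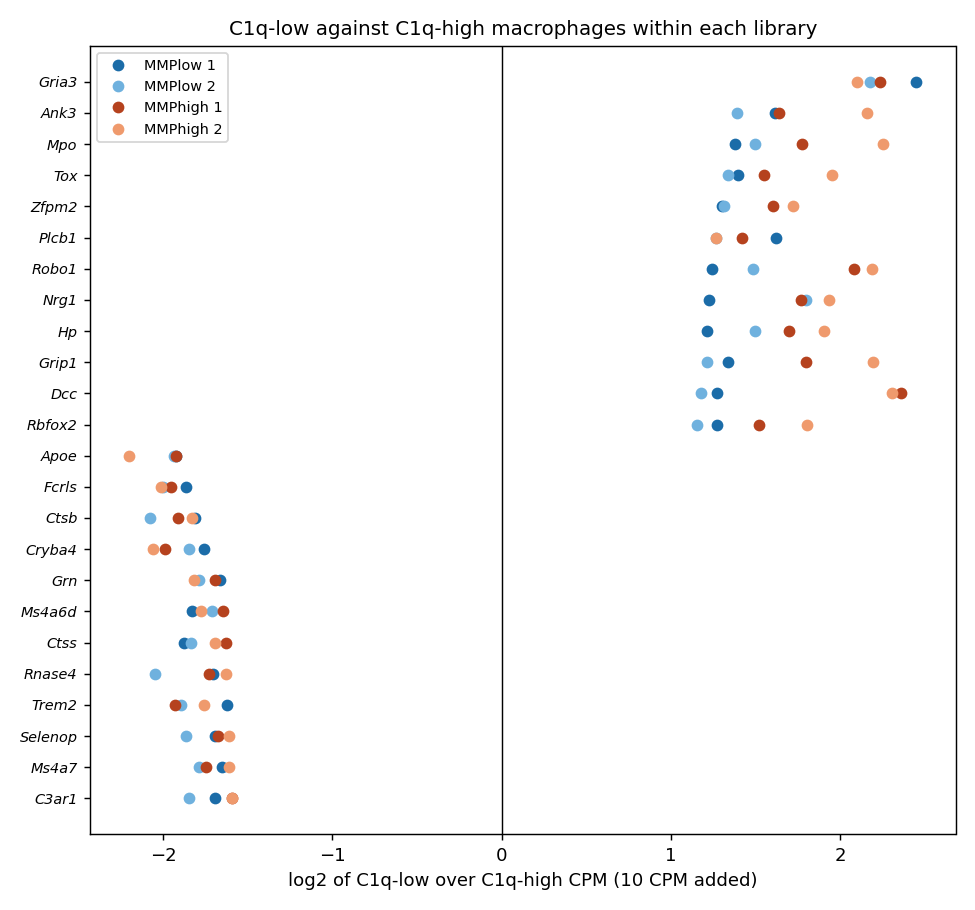
Log2 ratio of C1q-low over C1q-high CPM within each library (horizontal axis, 10 CPM added to both values) for the 12 genes farthest above and the 12 farthest below in all 4 libraries, points coloured by library. Every gene shown lies on 1 side of 0 in all 4 libraries; Apoe lies near -2.00 in each, whereas Dcc varies more between libraries.

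The gate comparison asked which genes differed between C1q-low cells of MMPhigh and of MMPlow, with UMIs summed per library and tested by edgeR's quasi-likelihood test. Most clusters came from 1 gate, and 8 of the 11 were led, relative to the other C1q-low cells, by genes of other classes. The test therefore compares the cells the rule picked, not a single cell type. At an adjusted p under 0.05, 5508 of 14593 genes (37.7%) were called, 2883 higher in MMPhigh (19.8%) and 2625 lower (18.0%). Leaving out MMPlow 1 or MMPlow 2 gave 3046 or 3596 calls, and keeping cells of at least 5000 UMIs and 2000 genes gave 2209. In sums over cells, fewer cells of a type and less RNA per cell cannot be told apart.

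The largest differences were in genes of other cell types. Tubb3, the neuronal tubulin gene, stood at 15.3 and 17.6 CPM in MMPlow and at 287 and 248 CPM in MMPhigh, a log2 difference of 4.20 (SE 0.18, adjusted p = 5.7e-08, edgeR). Fstl5, Dner, Myt1l and Cntn2, all genes of neurons, were among the 12 largest rises, with log2 differences of 5.26, 4.80, 4.54 and 4.11. All 9 neural-list genes tested were higher, with a median of 3.42, against -0.02 over all 14593 genes. In the other direction, Emcn stood at 293 and 306 CPM in MMPlow and at 1.94 and 4.29 CPM in MMPhigh, a log2 difference of -6.26 (SE 0.24, adjusted p = 4.7e-08). All 10 endothelial genes were lower, with a median of -4.62, and the 12 largest falls included Stab2, Flt4, Robo4 and Cdh5. Tubb3 was also a leading gene of cluster 2, Emcn of cluster 5 and Stab2 of cluster 6. Retained cells outside the macrophage rule shifted likewise. Their endothelial list summed to 29.0 and 28.5 per 10000 in MMPlow and to 1.39 and 1.10 in MMPhigh. Their neural list summed to 2.47 and 2.34 in MMPlow and to 20.4 and 25.4 in MMPhigh. Whether these shifts are linked to those of the C1q-low cells was not tested.

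Many myeloid genes were higher in MMPhigh. Of 18 myeloid identity genes, 12 were higher and 1 was lower, against 19.8% and 18.0% over all genes tested. The list had a median log2 difference of 0.61. Tyrobp, a signalling adaptor of myeloid cells, stood at 363 and 442 CPM in MMPlow and at 806 and 699 CPM in MMPhigh (log2 difference 1.08, SE 0.18, adjusted p = 0.00088, edgeR). Coro1a, a leukocyte actin-binding protein gene, stood at 262 and 295 CPM against 542 and 571 CPM (1.18, SE 0.16, adjusted p = 0.00018). Spi1 rose less, from 159 and 170 CPM to 203 and 236 CPM (0.60, SE 0.14, adjusted p = 0.0068). Aoah was the gene that fell, from 202 and 228 CPM to 88.9 and 130 CPM (-0.79, SE 0.17, adjusted p = 0.0040). The libraries of the gates did not overlap for these 4 genes, as for 74.0% of all genes tested. Tyrobp and Coro1a were also leading genes of cluster 4. That cluster held 6.30% and 7.69% of the C1q-low cells of MMPlow and 8.71% and 47.8% of those of MMPhigh. Its part in these differences was not tested. With the stricter cell filter the calls of Tyrobp (0.42), Spi1 (0.38) and Aoah (-0.29) were lost, and that of Spi1 also with endothelial-led cells removed (0.29) and without MMPlow 1 (0.53, adjusted p = 0.16) or MMPlow 2 (0.66, adjusted p = 0.062).

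Over all genes tested, 19.8% were higher and 18.0% lower. Of 20 lysosome genes tested, 11 were higher and none was lower (median 0.45), and of 16 microglia genes 9 were higher and 2 lower (median 0.59). The resident perivascular list went the other way, with 8 of 16 lower and 3 higher, the latter near the share over all genes (median -0.43). Colec12, a scavenger receptor gene of that list, fell from 102 and 104 CPM to 24.4 and 38.6 CPM (-1.51, adjusted p = 8.2e-05). Trem2 stood at 66.2 and 64.1 CPM against 87.8 and 95.1 CPM (log2 difference 0.67, adjusted p = 0.0025). Among chemokine and cytokine genes 6 of 13 were higher, with Ccl3, a macrophage inflammatory chemokine gene, at 6.48 and 7.28 CPM in MMPlow and 28.0 and 34.7 CPM in MMPhigh (2.36, adjusted p = 4.7e-06). Immediate early and stress genes also rose, 12 of 17 with a median of 1.06. Jun, a component of the AP-1 transcription factor, stood at 87.4 and 87.3 CPM against 183 and 180.4 CPM (1.24, adjusted p = 5.7e-05). Jun and Ccl3 kept their calls under every alternative, whereas that of Trem2 was lost with the stricter cell filter (0.38) and with endothelial-led cells removed (0.36).

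Genes of phagocytosis of dying cells went the other way, with 10 of 17 lower and 2 higher (median -0.49). With a C1q limit of 40, 3 were lower and 3 higher, and with the stricter cell filter 3 of 16 were lower and 1 higher (median -0.01). Without MMPlow 2, or with the rule applied to thinned cells, 6 were lower. Dock1, a guanine nucleotide exchange factor for Rac, fell from 233 and 211 CPM to 70.5 and 96.2 CPM (log2 difference -1.23, SE 0.16, adjusted p = 0.00014, edgeR). Abca1, a cholesterol exporter gene, fell from 173 and 158 CPM to 79.6 and 86.3 CPM (-0.82, adjusted p = 0.00092). Stab1, at 427 and 337 CPM against 135 and 175 CPM, fell by 1.12 (adjusted p = 0.00042). Dock1 kept its call under every alternative. Abca1 and Stab1 lost theirs with the stricter cell filter (-0.30 and -0.40) and with a C1q limit of 40 (-0.19 and -0.35). Among granulocyte genes 3 of 13 fell, against 18.0% over all genes, and none rose. Mpo was among the 3 (-0.91, adjusted p = 0.00049). S100a8 stood at 113 and 121 CPM in MMPlow, at 0.863 CPM in MMPhigh 1 and at 115 CPM in MMPhigh 2, where 1.58% of C1q-low cells held it.

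Of the macrophage transcription factor genes, 3 of 24 rose and 5 fell, against 19.8% and 18.0% over all genes. Irf8, a regulator of monocyte and microglia development, rose (log2 difference 0.57, adjusted p = 0.014), while Mef2a and Pparg fell (-0.66 and -0.75, adjusted p = 0.0070 and 0.0085). Among 14 growth factor genes 3 rose and 4 fell. Fgf13, a gene also expressed in neurons, rose (1.45, adjusted p = 0.00024). Pdgfb, which recruits mural cells, fell from 29.2 and 21.1 CPM to 3.02 and 3.63 CPM (-2.70, adjusted p = 1.5e-05), and Igf1 fell from 76.0 and 74.9 CPM to 36.9 and 50.0 CPM (-0.61, adjusted p = 0.0095). Pdgfb is also an endothelial gene and the endothelial list fell with it. Without MMPlow 2 the calls of Irf8 (0.47), Mef2a (-0.62), Pparg (-0.67) and Igf1 (-0.61) were lost, and without MMPlow 1 those of Irf8 (0.66) and Igf1 (-0.62). With endothelial-led cells removed, Irf8 (0.27) and Igf1 (-0.29) were not called either. For the transcription factor list, 5 of 22 genes fell and none rose with those cells removed, and 4 of 22 fell and 3 rose in myeloid-led cells alone. With a C1q limit of 40, 3 of 24 fell and 7 rose, and with the stricter cell filter 1 of 21 fell and 3 rose. With the highest 6% of doublet scores removed, none of 23 fell and 2 rose. The list median was -0.22 in the main test and 0.08, 0.23 and 0.02 in these last settings.

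To see which of these values rest on cells led by other classes, the test was repeated on cells whose myeloid identity UMIs exceeded those of each of 8 other cell type lists, an alternative chosen after seeing the data. Then 4131 of 13219 genes (31.3%) were called, with 2172 higher (16.4%) and 1959 lower (14.8%). Since the myeloid identity list chose these cells, it is not counted on them. Lysosome genes were higher in 6 of 20 (median 0.33) and immediate early genes in 12 of 17 (1.26), and efferocytosis genes were lower in 9 of 17 (-0.54). Granulocyte genes, whose list was 1 of those 8, were lower in 6 of 10 (-1.67), against 14.8% over all genes. The 10 endothelial genes were still all lower (-4.84) and 7 of 8 neural genes higher (2.80), so these markers were not removed by that selection, which used both lists.

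Since the sort was by mitochondrial potential, mitochondrial genes were examined as their own lists. Mitochondrially encoded UMIs took 5.63% and 6.16% of the median C1q-low cell of MMPlow, compared with 3.12% and 3.80% for MMPhigh. The difference was -2.44 points (MMPlow 5.90% ± 0.368, MMPhigh 3.46% ± 0.480, SD, n = 2 each, exact permutation p = 0.33, the smallest the design allows). Both MMPhigh libraries lay below both MMPlow libraries, but among cells of at least 5000 UMIs and 2000 genes the difference turned to 0.51 points. The cell filter had removed cells at 25% or more, so this share and the mitochondrial gene values below come from a set cut on this measure. Whether the cut fell unequally on the gates was not tested.

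Of the 13 mitochondrially encoded genes, 6 fell and none rose (median -0.41). With a C1q limit of 40, 3 fell, and with the highest 6% of doublet scores removed 2 fell. Without MMPlow 1 or MMPlow 2, 3 fell, and with the stricter cell filter 1 fell and the median was 0.03. mt-Nd5, a complex I subunit, stood at 913 and 926 CPM in MMPlow and at 485 and 441 CPM in MMPhigh (log2 difference -0.81, SE 0.16, adjusted p = 0.0030, edgeR). mt-Co3, a complex IV subunit, was not called (-0.14, adjusted p = 0.64). Nuclear genes of oxidative phosphorylation went the other way: 52 of 76 rose and none fell (median 0.55). That count was 11 without MMPlow 1, 25 without MMPlow 2 and 8 with the stricter cell filter, where the median was 0.19. Atp5g1, an ATP synthase subunit gene, stood at 422 and 430 CPM against 678 and 567 CPM (0.73, SE 0.17, adjusted p = 0.0062). TCA cycle genes rose in 12 of 25 and fell in none, and glycolysis genes rose in 10 of 20 and fell in 2, against 19.8% and 18.0% over all genes. Slc2a1, a glucose transporter gene, and Hk3, a hexokinase gene, were the 2 that fell (-0.81 and -0.91). Gapdh stood at 600.3 and 706 CPM against 1575 and 1824 CPM (1.56, adjusted p = 7.4e-05). Gapdh kept its call under every alternative. The calls of mt-Nd5 (-0.41) and Atp5g1 (0.30) were lost with the stricter cell filter, and that of Atp5g1 also without MMPlow 1 (0.70) or MMPlow 2 (0.76). mt-Nd4 (-0.56) and mt-Nd1 (-0.58), 2 of the 6 genes that fell, were not called without MMPlow 1 (-0.54 and -0.62) or MMPlow 2 (-0.57 and -0.54).

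Within cluster 4 the mitochondrial lists had the opposite signs to those over all C1q-low cells. The cluster was chosen after its values were seen, so the values are given without a test, as log2 ratios of the mean CPM with 10 CPM added. Depth moved with the gate here, as given above, and its part in these values was not tested. Over 6545 genes at 20 CPM or more in both libraries of a gate, 2325 were higher in both MMPhigh libraries than in both MMPlow libraries and 1410 were lower, with a median of 0.06. Of the 13 mitochondrially encoded genes, 9 were higher without overlap and none lower (median 0.64). mt-Co3 stood at 3818 and 4903 CPM in MMPlow and at 9435 and 8094 CPM in MMPhigh, and mt-Nd2 at 1040.3 and 1250.3 CPM against 2497 and 2128 CPM. Of 76 nuclear oxidative phosphorylation genes, 34 were lower and 6 higher (median -0.18). The median mitochondrial share of cells was higher in MMPhigh in cluster 4 and also in clusters 1 and 3, which held few MMPhigh cells. Cluster 1 stood at 6.08% and 7.24% in MMPlow against 16.4% (5 cells) and 23.0% (1 cell) in MMPhigh. Cluster 3 stood at 6.45% and 7.34% against 12.4% (9 cells) and 9.59% (4 cells). In clusters 7 and 8 the share was lower in MMPhigh, and in cluster 2 the gates overlapped.

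The myeloid identity list had a median of 0.13 in cluster 4, with 8 of 17 genes higher and 2 lower. Over the 6545 genes of this comparison, 2325 were higher and 1410 lower. Spi1 stood at 368 and 324 CPM in MMPlow and at 355 and 350.1 CPM in MMPhigh, and Tyrobp at 1287 and 1259 CPM against 1277 and 1032 CPM, and the gates overlapped for both. Ccr2 stood at 154 and 162 CPM against 166 and 160 CPM. Runx1, a transcription factor gene of blood development, separated them, at 330.4 and 378 CPM against 724 and 613 CPM, as did Zeb2, at 1314 and 1266 CPM against 1988 and 1983 CPM. Phagocytosis genes were higher in 9 of 12 and lower in none (median 0.68), the reverse of their sign over all C1q-low cells. Dock1 stood at 78.3 and 61.1 CPM in MMPlow and 121 and 102 CPM in MMPhigh, and Stab1 at 109 and 76.8 CPM against 175 and 174 CPM.

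Lysosome genes were higher in 11 of 19 and lower in 1 (median 0.32) in cluster 4, against 2325 and 1410 of the 6545 genes. Lgmn, an asparagine endopeptidase gene, stood at 174 and 96.2 CPM against 236 and 279 CPM. Of 8 immediate early genes 6 were higher, including Klf6 at 41.1 and 35 CPM against 127 and 109 CPM and Jun at 94.2 and 85.7 CPM against 219 and 223 CPM. Of the 7 endothelial genes that reached 20 CPM, all but Egfl7 and Pecam1 did so through MMPlow alone, and their direction follows from that filter. Pecam1 stood at 46.4 and 52.2 CPM in MMPlow and 42.5 and 42.9 CPM in MMPhigh, and Kdr at 49.1 and 26.1 CPM in MMPlow and 2.06 and 2.61 CPM in MMPhigh. Pf4, platelet factor 4, stood at 182 and 164 CPM against 17.1 and 29.1 CPM. The part of this endothelial and platelet RNA in the values of cluster 4 was not tested.

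**Figure D5:**
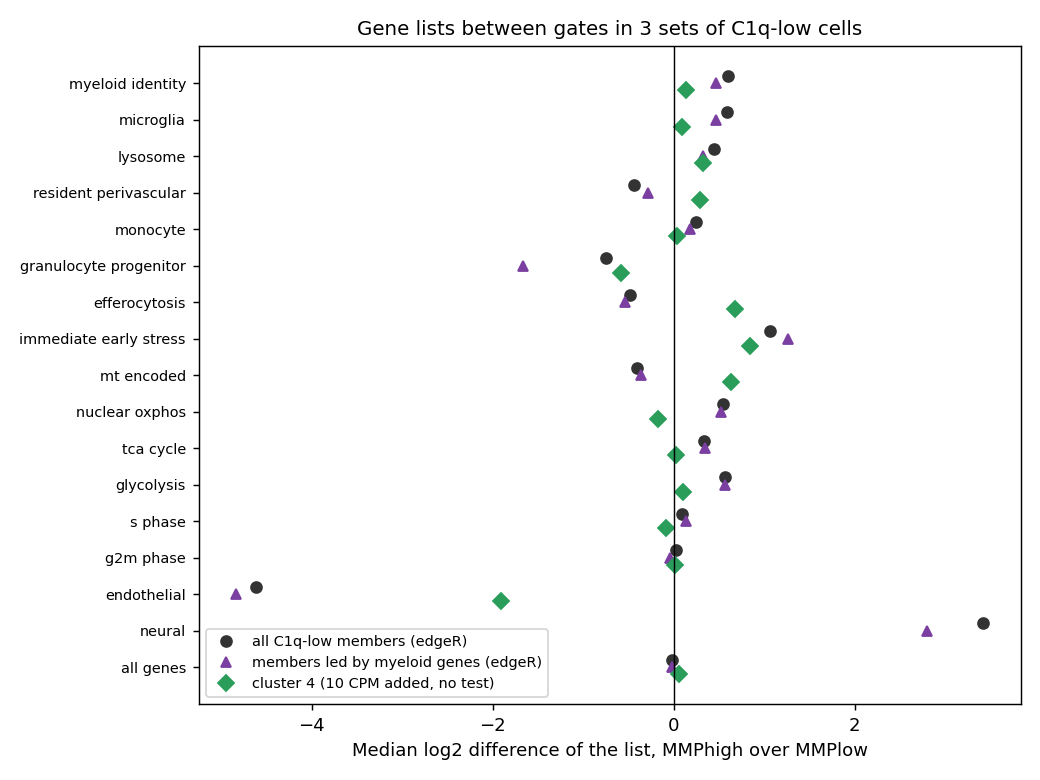
Median log2 difference of MMPhigh over MMPlow (horizontal axis) for 16 gene lists and all genes (vertical axis) in all C1q-low cells (black circles, edgeR), in those led by myeloid genes (purple triangles, edgeR; the cell type lists helped choose these cells) and in cluster 4 (green diamonds, ratio of CPM with 10 added, no test). The mitochondrially encoded list lies at -0.41 in all cells and 0.64 in cluster 4, and the nuclear oxidative phosphorylation list at 0.55 and -0.18.

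Whether the gate difference of a gene itself differed between C1q-low and C1q-high cells was tested as the interaction of class and gate with library as a block (edgeR). The interaction was called for 3164 of 14880 genes (21.3%), with 2022 positive (13.6%), meaning a larger MMPhigh over MMPlow ratio in C1q-low cells, and 1142 negative (7.67%). The balance of the directions turned without MMPhigh 1, to 1333 positive and 1918 negative, and was 1599 to 1582 with at least 10 CPM in 2 sums. Without the library block 358 genes were called, without MMPlow 1 1734 and without MMPlow 2 1232. All 13 mitochondrially encoded genes were negative (median -0.58). In C1q-high cells mt-Co3 stood at 6981 and 7191 CPM in MMPlow and at 9764 and 9453 CPM in MMPhigh, whereas in C1q-low cells it stood at 9201 and 10125 CPM against 8127 and 7298 CPM, an interaction of -0.62 (adjusted p = 9.1e-07). Of 76 nuclear oxidative phosphorylation genes 67 were positive (median 0.49) and none was negative. The medians of both lists kept their signs under every alternative. The calls did not: without the library block none of the 13 and none of the 76 genes was called, and without MMPlow 2 they were 5 and 19.

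Efferocytosis genes were negative in 12 of 17 (median -0.71; 4 without the library block, 6 with a C1q limit of 40 and 7 with the stricter cell filter), with Dock1 at -0.86 (adjusted p = 1.1e-07) and Abca1 at -0.95 (adjusted p = 3.9e-10). Macrophage transcription factor genes were negative in 10 of 24 and positive in 2, but negative in 6 without MMPlow 1, without MMPlow 2 or with a C1q limit of 40, in 5 with the stricter cell filter, in 2 without the library block and in 16 with endothelial-led cells removed. Plac8, a gene of monocytes and of dendritic cell precursors, had an interaction of 1.23 (adjusted p = 7.8e-11): it stood at 106, 161, 296 and 244 CPM in C1q-low cells and at 94.4, 103, 120 and 72.0 CPM in C1q-high cells. For Jun and Klf6 the interaction was not called, at -0.22 (adjusted p = 0.29) and -0.04 (adjusted p = 0.89), and for Spi1 at 0.13 (adjusted p = 0.48). Hbb-bt, an adult beta globin gene, had an interaction of 2.87 (adjusted p = 5.2e-09): it stood at 19.0, 21.5, 78.9 and 60.8 CPM in C1q-low cells and at 19.2, 7.88, 5.80 and 5.86 CPM in C1q-high cells. Hbb-bt was thus higher in MMPhigh in C1q-low cells and lower in C1q-high cells. The erythroid list was less uniform, and its summed UMIs per 10000 in C1q-low cells overlapped between the gates. Of 9 erythroid genes tested, 3 rose and 1 fell between gates in C1q-low cells, and 4 had a positive interaction and none a negative one. The part of globin RNA in the interaction of other genes was not tested.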

How the data were processed

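UMIs of 3′ single-cell libraries were counted per gene and barcode by the authors, and these deposited counts were used as they stand, as raw whole numbers. The submitters' processing notes name Cell Ranger 2.1.1 and the mm10 genome, whereas Cell Ranger 7.0.1 stands in the file headers; the annotation is not given in the sources used here. Intronic reads and free RNA can both enter such counts and were not corrected.

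The cell rule was applied to the counts in Python 3.11.15 (scipy 1.17.1, scanpy 1.11.5). The members and gene lists were chosen with earlier results of these data known. C1q-low cells were clustered within scanpy on 2000 variable genes without rule, ribosomal and mitochondrial genes (30 components, 15 neighbours, Leiden resolution 0.5). Neural cells were those with at least 3 of 10 neural-list genes and 8 or more of their UMIs per 10000; those that did not meet the macrophage rule gave the background shares. Counts were summed per library and class, since cells are not replicates, and tested with edgeR 4.0.16 (TMM, quasi-likelihood test, two-sided, Benjamini-Hochberg over all genes tested). Tested on simulated data with a common dispersion (spread between libraries) of 0.0168, the gate fit recovered 81% of genes changed by a log2 of 1. It recovered 100% of those changed by 2 and made 12 false calls. The interaction fit, at a common dispersion of 0.00384, recovered 65% and 92% and made 5 false calls. Whether these rates hold for libraries of differing cell mixtures, as here, was not tested. Shares were compared by exact permutation over libraries.

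Genes were named when they were among the 12 with the largest change in a direction, past an adjusted p of 0.05, at 20 CPM or more in each library of the higher gate and without overlap between gates, or as the most abundant called members of each list; genes outside this rule were chosen after their values were seen. Alternatives covered normalization (RLE), DESeq2 1.42.0, low-count filters, the replicate block, each library left out, stricter cell filters, other rule limits, thinning to 2000 UMIs, and doublet removal. The shared replicate numbers of the gates were not treated as pairs. The results of 1 gene that the rule names are not reported here.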

Additional observations from a re-analysis of the deposited data

Results flagged for a closer look

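The interaction of class and gate tests whether the MMPhigh over MMPlow difference differs between C1q-low and C1q-high cells. Of its 3164 called genes, 24 were named. These were the 12 largest in each direction among those that met the limits for naming, so their even split was set in advance. The first 12 had a positive fitted interaction on the log2 scale. Endothelial genes gave 4.95 (Adgrf5), 3.83 (Cldn5), 3.13 (Emcn), 2.83 (Tll1) and 2.46 (Ptprb). Their C1q-high sums in MMPhigh held 0 to 6 UMIs, and with 10 CPM added to each value the direction turned in all 5: the log2 gate ratio in C1q-low against C1q-high cells was -3.19 against -2.36 for Adgrf5, -3.08 against -2.86 for Cldn5, -4.56 against -3.84 for Emcn, -1.90 against -1.56 for Tll1 and -3.52 against -2.79 for Ptprb. No direction is therefore read from these 5. Erythroid genes gave 3.60 (Klf1), 2.89 (Hbb-bs) and 2.87 (Hbb-bt). Genes expressed in neurons or neural progenitors gave 3.18 (Cntnap2), 2.64 (Cacna2d3), 2.57 (Onecut2) and 2.39 (Sox2ot).

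The other 12 had a negative fitted interaction, a smaller ratio in C1q-low cells. Genes of endothelium or its matrix gave -3.36 (Stab2), -2.31 (Col15a1), -1.93 (Thsd1), -1.89 (Pdgfb), -1.69 (Pald1) and -1.63 (Cdh5). The remaining genes gave -1.63 (Lhfpl2), -1.61 (Arhgap27), -1.60 (Insyn2a), -1.58 (Morrbid), -1.52 (Tg) and -1.52 (Fhod1). Morrbid, a long noncoding RNA gene of myeloid cell survival, stood at 75.4 and 73.5 CPM in MMPlow and 47.2 and 51.3 CPM in MMPhigh in C1q-low cells, and at 49.9 and 39.8 CPM against 91.9 and 98.4 CPM in C1q-high cells. Adgrf5 had 2 sums of 0 UMIs, and Emcn and Stab2 had 1 each, so their fitted values depend on the prior count of the fit. No cause was tested for any of these genes.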

How the results depend on the processing

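With TMM, 5508 genes were called between gates. This moved by more than 1.5 times with a stricter cell filter (2209) and with the highest 6% of doublet scores removed (2822, chosen after seeing the data), and ran from 3046 to 6641 with a library left out. The interaction count of 3164 moved to 1181 with DESeq2, 358 without the library block, 909 with the stricter cell filter, 1875 with a C1q limit of 40 and 2093 with the rule on thinned cells, and ran from 1232 to 3637 with a library left out. The share of retained cells turned to -1.01 points with a C1q limit of 10 and ran from -1.03 to 9.73 points with a library left out. The mitochondrial share turned to 0.51 points with the stricter cell filter.

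Over the 160 genes named between gates, 60 kept direction and side of the threshold in every alternative that could be computed. Of single gene and alternative pairs 2506 were unchanged, 347 lost the call, 8 gained it and 3 reversed: Mitf (0.54) and Elmo1 (0.0056) with the stricter filter, and Pdgfc (-0.082) without the highest doublet scores. In the interaction 9 of 24 genes held throughout and 4 values reversed: Cntnap2 (-0.054) and Hbb-bs (-0.16) on thinned cells, Cacna2d3 (-5.79) with a C1q limit of 40 and Ptprb (-0.93) without the highest doublet scores. The cause was not tested.

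With the replicate block 5759 genes were called between gates. The labels do not say that a replicate number marks a pairing, and the deviations of same-numbered libraries correlated with r = 0.08 across 14593 genes. The depth of the cells, with medians of 2966.5 to 3419 UMIs in 3 libraries, limits which cells can meet the rule.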

Other observations

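Cluster 3 of the C1q-low cells carried receptor genes not usually listed for granulocytes. Gria3, an AMPA receptor subunit gene, stood at 810 CPM there and at 156 CPM in the other C1q-low cells, and Oprm1, the mu opioid receptor gene, at 90.4 and 7.73 CPM. Gria3 was also the gene farthest above in C1q-low against C1q-high cells, at 241, 271, 167 and 177 CPM against 36.1, 52.2, 27.7 and 33.7 CPM. Hp, haptoglobin, a plasma haemoglobin-binding protein stored in neutrophil granules, stood at 268 CPM in cluster 3 and 48.6 CPM in the others.

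Cluster 10 had Gm42418 at 28988 CPM and AY036118 at 5819 CPM, against 7205 and 1570 CPM in the other C1q-low cells. S100a9 in MMPhigh 2 stood at 113 CPM while 0.949% of its C1q-low cells held a UMI of it, so few cells gave that level.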
